A study of Homo sapiens with 2 samples.

Results

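The H3K27 methylation machinery was followed through 10 genes in C4-2B cells, a human line of castration-resistant prostate cancer. Of these genes, 6 encode the core subunits of Polycomb repressive complex 2 (PRC2), namely EZH2, EZH1, EED, SUZ12, RBBP4 and RBBP7. Another pair, JARID2 and AEBP2, encodes accessory subunits, and KDM6A and KDM6B encode the demethylases of the mark. The members were listed by name and function, with earlier results of these data known. All 10 members were found among the 60671 genes of the count table, and all 10 had at least 10 counts over both libraries, the minimum that 23446 genes passed.

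The cells were exposed to vehicle or to 1 µM (R)-9b, a small-molecule inhibitor of the tyrosine kinase ACK1 (encoded by TNK2), overnight according to the sample labels, which name no genetic change in either group. The RNA sequencing methods of the study state no dose or duration. Poly-A selected RNA of each condition was sequenced as 1 library, so no spread between replicates could be measured, and the treatment and the library cannot be told apart. The comparison asks which components of the H3K27 machinery differed in mRNA after inhibition of ACK1.

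PRC2 places methyl groups on lysine 27 of histone H3, and the trimethylated form, H3K27me3, marks silenced genes. EZH2 or its paralogue EZH1 supplies the catalytic activity, SUZ12 and EED are required for that activity, and EED also binds the finished mark. RBBP4 and RBBP7 are histone-binding proteins that PRC2 shares with other chromatin complexes, while JARID2 and AEBP2 define a variant named PRC2.2. KDM6A (UTX) and KDM6B (JMJD3) remove the methyl groups again. In prostate cancer EZH2 is known as a gene that is highly expressed in advanced disease, and E2F transcription factors are known regulators of its transcription in dividing cells.

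The vehicle library held 65207444 gene counts and the (R)-9b library 57653965. Counts were scaled with the TMM method and are given as CPM, counts scaled to the size of the library, and each ratio is (R)-9b over vehicle on the log2 scale, where −1 is a 2-fold lower value. The exact 95% interval of a ratio covers counting error only. A gene was called when its ratio passed 1.5-fold, and a weaker call required only that the whole interval lie on 1 side of equality. Mitochondrially encoded genes took 1.495% of the vehicle counts and 9.54% of the (R)-9b counts, and scaling by the totals instead of TMM lowers every log2 ratio by 0.06. The 8 prostate markers examined were all expressed in both libraries and summed to 4833 CPM in vehicle and 9804 in (R)-9b. PSA (KLK3) had 146597 counts in vehicle and 297728 in (R)-9b. The labels name breast cancer as the cell type, but of 6 breast markers SCGB2A2 and ANKRD30A had no counts, ESR1 had 2 in each library, PGR had 10 and 2, and GATA3 had 38 and 30, while TRPS1 had 906 and 516. Of 5 immune markers, CD45 (PTPRC) had no counts in either library and CD68 had the most, 4 and 12. Of 5 stromal markers, COL1A1 had 1114 counts in vehicle and 2004 in (R)-9b and VWF 769 and 411, whereas DCN, COL1A2 and PECAM1 had 14 or fewer, and the part of such differences in the results was not tested.

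EZH2 was the member that differed most. It had 4007 counts in vehicle and 1744 in (R)-9b, or 60.2 and 30.9 CPM. The (R)-9b level was 0.513 of the vehicle level, a log2 ratio of −0.96 (95% interval −1.04 to −0.88), and EZH2 was the only 1 of the 10 members past 1.5-fold. No member was higher past 1.5-fold. Among all genes tested 18.0% were lower and 20.2% higher past 1.5-fold, so 1 of 10 is no larger a share than in the background. Most genes past that fold had fewer than 1000 counts, whereas each member had more in the 2 libraries together. Of the 10240 genes at or above 1000 counts, 10.0% were lower and 8.72% higher past 1.5-fold. EZH2 ranked 2358th from the lowest ratio of all genes tested, with 10.1% of the genes below it, and 3.25% of the genes with at least 1000 counts had a ratio as low. Fewer cells with EZH2 mRNA and less of it per cell cannot be told apart in bulk RNA.

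**Figure D1:**
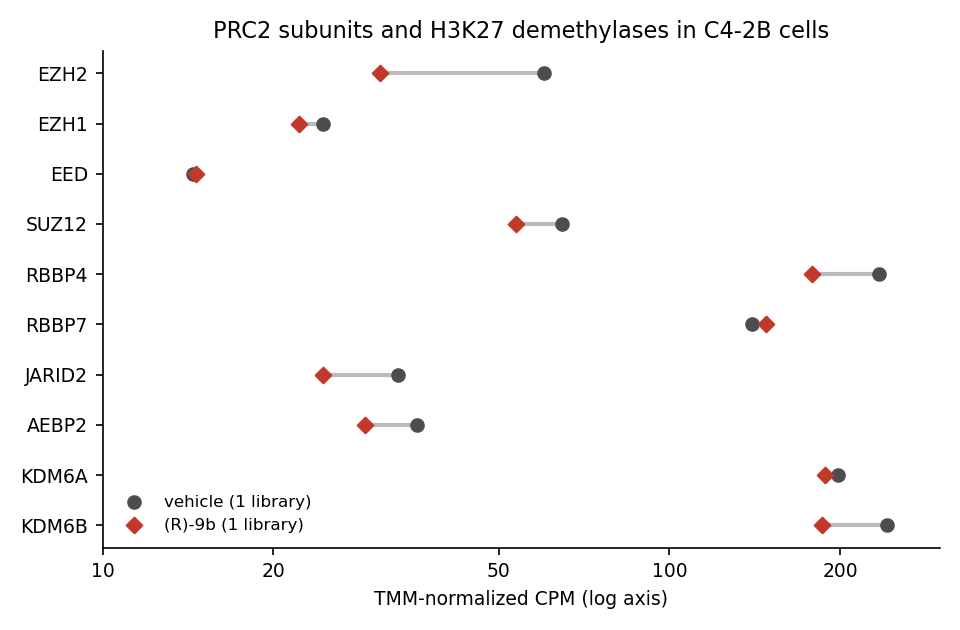
TMM-normalized CPM of the 10 members on a log axis, with a grey circle for the vehicle library, a red diamond for the (R)-9b library and a line joining them. EZH2 spans the longest line, from 60.2 to 30.9 CPM, while EED and KDM6A nearly coincide in the 2 libraries.

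The other catalytic subunit differed far less. EZH1 had 1630 counts in vehicle and 1253 in (R)-9b, or 24.5 and 22.2 CPM, with a log2 ratio of −0.14 (−0.25 to −0.03). Of the counts from 1 to 20 in the table, 72.24% were even in vehicle and 70.35% in (R)-9b, as happens where the 2 ends of a fragment each add a count. With all counts divided by 2 the EZH1 interval, −0.29 to 0.01, includes 0. Per kilobase of merged exons, the level of EZH2 was 3.80 times that of EZH1 in vehicle and 2.15 times in (R)-9b. The EZH2:EZH1 ratio in (R)-9b was therefore 0.566 of that in vehicle (95% interval 0.516 to 0.622, and 0.496 to 0.648 with counts divided by 2), a value that no scaling of the libraries can change.

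The non-catalytic core subunits did not move as a unit. SUZ12, which holds the complex together, had 4307 and 3023 counts in vehicle and (R)-9b, or 64.7 and 53.5 CPM, with a log2 ratio of −0.27 (−0.34 to −0.21). EED, the reader of the mark, had 960 and 824 counts, or 14.4 and 14.6 CPM, and its log2 ratio of 0.02 (−0.12 to 0.15) could not be told from equality at this depth. The EED interval leaves out any difference as large as that of EZH2. The histone chaperone pair went in opposite directions. RBBP4 was at 234 CPM in vehicle and 178 in (R)-9b (15604 and 10071 counts, log2 ratio −0.39, −0.43 to −0.36). RBBP7 was at 140 and 148 CPM (9304 and 8369 counts, log2 ratio 0.08, 0.04 to 0.13), and it was not past equality when the libraries were scaled by their totals (0.02, −0.02 to 0.07). The RBBP4:RBBP7 ratio in (R)-9b was 0.718 of that in vehicle (0.690 to 0.746).

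The PRC2.2 accessory subunits were both lower in (R)-9b, within 1.5-fold. JARID2, which helps to bring PRC2 to chromatin, had 2209 and 1381 counts, or 33.2 and 24.5 CPM, with a log2 ratio of −0.44 (−0.54 to −0.34), the second lowest among the members. AEBP2, a zinc finger protein that stabilizes the complex, had 2387 and 1637 counts, or 35.9 and 29 CPM, with a log2 ratio of −0.31 (−0.40 to −0.22). Among the demethylases, KDM6B stood at 242 CPM in vehicle and 186 in (R)-9b (16123 and 10508 counts, log2 ratio −0.38, −0.42 to −0.34). KDM6A stood at 199 and 188 CPM (13223 and 10607 counts, log2 ratio −0.08, −0.12 to −0.04). The KDM6B:KDM6A ratio in (R)-9b was 0.812 of that in vehicle (0.784 to 0.842).

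By the weaker call, on the counting interval alone, 8 members were lower, 1 (RBBP7) was higher and EED was neither. That call was met by 31.1% of all genes in the lower direction and by 29.8% in the higher direction, since at this depth small differences between 2 libraries exceed counting error. With the counts divided by 2, 7 members were lower, 1 was higher and 2 were neither. The median log2 ratio of the 10 members was −0.29 and their range −0.96 to 0.08, against a median of −0.005 over all genes tested, whose middle 50% lay between −0.39 and 0.44. JARID2 and RBBP4 lay just below that middle range and EZH2 well below it.

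**Figure D2:**
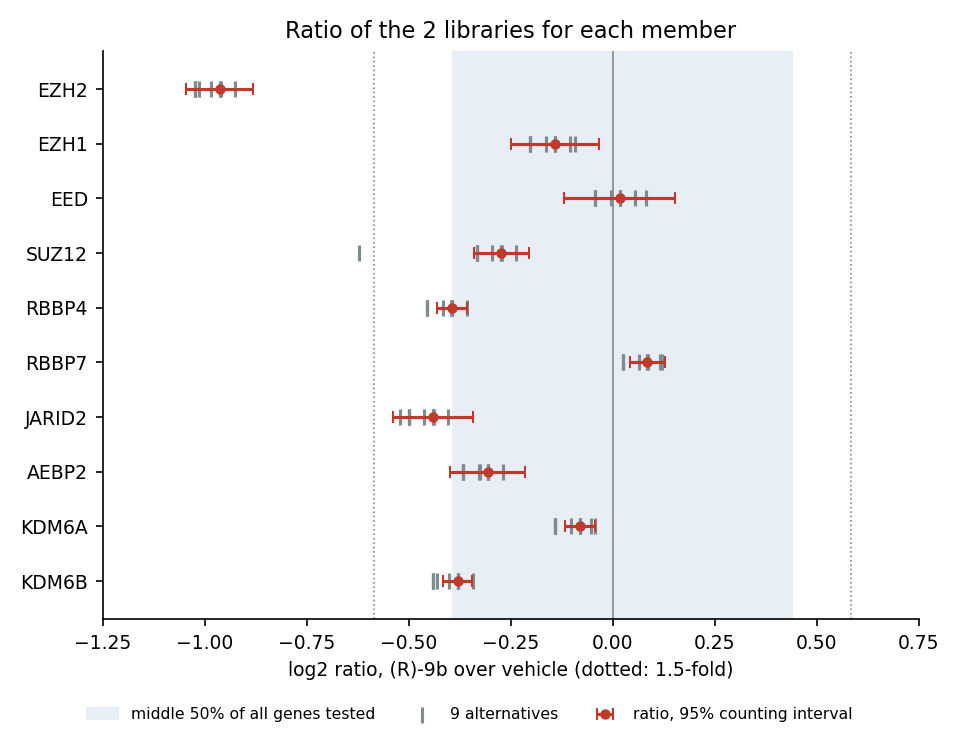
Log2 ratio of (R)-9b over vehicle for each member (red point) with its exact 95% counting interval, the values under 9 alternatives of scaling or quantification (grey ticks), and the middle 50% of all genes tested (shaded). EZH2 lies past the dotted line of 1.5-fold under every alternative, and SUZ12 passes it under 1, the estimated transcript counts.

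Set against every other member, EZH2 was lower by a margin beyond counting error. The ratio of EZH2 to another member in (R)-9b, relative to vehicle, ran from 0.484 against RBBP7 to 0.696 against JARID2 (0.637 to 0.761), and all 9 intervals lay below 1. Relative to SUZ12 it was 0.620 (0.576 to 0.667) and relative to EED 0.507 (0.454 to 0.566). Levels of different genes can be ordered only per length, and the order depends on the length used. Per kilobase of merged exons the order in vehicle was KDM6B (33.4 CPM per kilobase), KDM6A (27.8), RBBP4 (24.7), RBBP7 (18.9), EZH2 (13.3), SUZ12 (9.88), JARID2 (5.52), AEBP2 (5.46), EZH1 (3.50) and EED (2.06). In (R)-9b, KDM6A (26.3) and KDM6B (25.6) headed the order, followed by RBBP7 (20.1), RBBP4 (18.8), SUZ12 (8.18), EZH2 (6.83), AEBP2 (4.41), JARID2 (4.07), EZH1 (3.18) and EED (2.08). With the longest coding transcript as the length, RBBP7 headed the order in both libraries (59.9 and 63.5 CPM per kilobase), ahead of KDM6B (36.1 and 27.7) and KDM6A (33.5 and 31.7), and EED (6.49 in vehicle) stood above JARID2 (5.76) and EZH1 (5.30). EZH2 was above SUZ12 in vehicle by either length, at 1.35 times its level with merged exons and 1.58 times with the coding transcript. In (R)-9b it was 0.835 and 0.982 times SUZ12. In the transcript table EZH2 had more estimated counts than SUZ12 in both libraries, 1394 against 528 in vehicle and 581 against 289 in (R)-9b, where 3 of 4 SUZ12 transcripts are listed. In vehicle JARID2 was above AEBP2 with merged exons but below it with the coding transcript (5.76 against 7.03). In (R)-9b AEBP2 was above JARID2 by either length (5.69 against 4.25 with the coding transcript). JARID2 had more estimated counts there, 472 against 254, not per length and with 8 of 9 AEBP2 transcripts listed. The order of EZH2 and SUZ12 in (R)-9b, and that of JARID2 and AEBP2 in either library, therefore cannot be settled here.

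Pseudogene copies can share reads with 3 members. RBBP4 has 6 annotated pseudogenes with 1192 counts in vehicle and 785 in (R)-9b, of which RBBP4P1 took 783 and 505. With the pseudogenes added, RBBP4 kept a log2 ratio of −0.39. SUZ12P1 had 516 and 478 counts, 12.0% and 15.8% of the SUZ12 count, and SUZ12 with its copy gave −0.22 (−0.29 to −0.16). EZH2P1 had 11 and 4 counts, too few to affect EZH2. The antisense gene JARID2-AS1 had 20 and 4 counts. TNK2, the gene of the inhibited kinase, had 6946 and 5292 counts and a log2 ratio of −0.15 (−0.21 to −0.10). An inhibitor acts on the protein, so TNK2 mRNA is no check of the labels.

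EZH2 lies on the minus strand of chromosome 7 (148807383 to 148884321, GRCh38), and EZH1 on the minus strand of chromosome 17 (42700275 to 42745049). SUZ12 lies on the plus strand of chromosome 17 (31937018 to 32001045), EED on chromosome 11 (86244544 to 86278813, plus), and RBBP4 on chromosome 1 (32651142 to 32686211, plus). RBBP7 (16839283 to 16870414, minus) and KDM6A (44873177 to 45112602, plus) are both on chromosome X. JARID2 is on chromosome 6 (15246296 to 15522040, plus), AEBP2 on chromosome 12 (19404045 to 19720801, plus), and KDM6B on chromosome 17 (7839904 to 7854796, plus). To set the catalytic pair and SUZ12 side by side, the 200 bases before the RefSeq transcription start and the first 9 bases after it are printed 5′ to 3′ from RefSeq (GRCh38.p14), with capitals marking matches on either strand to the E2F spellings TTTGGCGC and TTTCCCGC and to CCAAT, the NF-Y box (read as ATTGG on the other strand). The windows are chr7:148884283-148884491 (minus) for EZH2, chr17:42745032-42745240 (minus) for EZH1 and chr17:31936807-31937015 (plus) for SUZ12. For EZH2, which has another RefSeq start, the start whose window held matches was printed.
EZH2: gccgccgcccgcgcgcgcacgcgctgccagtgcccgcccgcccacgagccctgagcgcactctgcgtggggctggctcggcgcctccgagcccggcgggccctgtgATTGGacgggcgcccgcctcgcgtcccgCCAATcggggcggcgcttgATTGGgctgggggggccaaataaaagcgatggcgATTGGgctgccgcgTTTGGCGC
EZH1: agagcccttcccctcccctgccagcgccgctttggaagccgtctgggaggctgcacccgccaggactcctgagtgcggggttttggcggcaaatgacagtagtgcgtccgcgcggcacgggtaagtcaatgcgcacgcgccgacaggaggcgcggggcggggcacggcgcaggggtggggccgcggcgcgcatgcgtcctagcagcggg
SUZ12: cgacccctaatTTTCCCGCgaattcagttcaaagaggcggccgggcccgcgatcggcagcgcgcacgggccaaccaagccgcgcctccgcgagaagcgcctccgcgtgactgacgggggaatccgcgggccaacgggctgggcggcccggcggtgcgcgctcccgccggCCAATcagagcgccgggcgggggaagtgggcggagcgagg

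The printed EZH2 window held 4 CCAAT matches, beginning 94, 66, 47 and 13 bases before the start, and the spelling TTTGGCGC 1 base after it. The window of the other EZH2 start (chr7:148883436-148883735, minus) held none of the 3 spellings. The SUZ12 window held TTTCCCGC 189 bases and CCAAT 31 bases before the start. The EZH1 window had none of the 3. Over the 300-base windows of all genes in the table, TTTGGCGC stood in 0.652% of 35116 windows, TTTCCCGC in 1.63% and CCAAT in 34.6%. All 10 members matched the table, with 15 windows, of which 9 windows of 7 genes held CCAAT and 1 each held an E2F spelling. A match describes the letters only, and no binding was measured.

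At the transcript level the EZH2 difference lay in its coding transcripts. The authors' transcript table gave estimated counts for the 10 annotated EZH2 transcripts, which summed to 1394 in vehicle and 581 in (R)-9b (log2 ratio −1.01, −1.16 to −0.87). The coding transcripts together had 1309 and 482 estimated counts (−1.19, −1.35 to −1.04). The 2 transcripts annotated as targets of nonsense-mediated decay (NMD), the pathway that degrades mRNAs with a premature stop, had 84.9 and 99.2, a log2 ratio of 0.47 (0.04 to 0.90). Their share of EZH2 was therefore 6.09% in vehicle (4.90% to 7.48%) and 17.1% in (R)-9b (14.1% to 20.3%). Over the whole transcript table the NMD share was 3.78% in vehicle and 3.34% in (R)-9b. Of 3155 genes with an NMD transcript and at least 400 estimated counts in each library, 73 (2.31%) had a rise in share at least as large as the 11 percentage points of EZH2. This background was chosen after the EZH2 values were seen. The intervals cover counting error and not the uncertain split of reads between overlapping transcripts.

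Single EZH2 transcripts differed in size of effect. EZH2-203 had 623 estimated counts in vehicle and 176 in (R)-9b, with shares of 44.7% and 30.4% and a log2 ratio of −1.58 (−1.82 to −1.33). EZH2-208 had 357 and 187, 25.6% and 32.2% of the gene, with a log2 ratio of −0.68 (−0.95 to −0.43). In (R)-9b the shares of EZH2-208 (28.4% to 36.2%) and EZH2-203 (26.6% to 34.2%) could not be told apart. EZH2-201 took 19.6% and 17.2% of the gene, with a log2 ratio of −1.20. The NMD transcripts EZH2-209 (44.2 and 53.4) and EZH2-207 (40.7 and 45.8) each had an interval that included equality. Among the coding transcripts, EZH2-201, EZH2-203 and EZH2-208 differ by short in-frame stretches at exon ends, and EZH2-202 lacks a whole exon of 117 bases that is exon 4 of EZH2-203. EZH2-201 encodes 751 codons, EZH2-203 746, EZH2-208 737 and EZH2-202 707, whereas the annotated reading frame of EZH2-209 stops after 334 codons and that of EZH2-207 after 144. The distinguishing coding sequences are shown 5′ to 3′ in GENCODE 29 transcripts, with capitals for the bases present in the first transcript and absent from the other, and for the stop codon in the last line. They lie at chr7:148846470-148846526 (exon 3 of EZH2-203, lacking in EZH2-208), chr7:148826454-148826498 (exon 8 of EZH2-201, lacking in EZH2-203), chr17:42727635-42727691 (exon 4 of EZH1-202, lacking in EZH1-201) and chr7:148819039-148819059 (exon 10 of EZH2-209, from its first base to the stop).
EZH2-203 over EZH2-208: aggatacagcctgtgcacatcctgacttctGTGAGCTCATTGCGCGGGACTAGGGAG
EZH2-201 over EZH2-203: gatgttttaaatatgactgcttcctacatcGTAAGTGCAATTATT
EZH1-202 over EZH1-201: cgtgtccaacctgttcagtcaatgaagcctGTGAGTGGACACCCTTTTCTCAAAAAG
EZH2-209 exon start to stop: ccactcctacctaggaacTAA

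The EZH2-203 stretch is 27 bases or 9 codons and the EZH2-201 stretch 15 bases or 5 codons. EZH1 also has a stretch of 27 bases at an exon end that tells its coding forms apart, with 10 of 27 positions identical to that of EZH2. The stop of EZH2-209 stands 18 bases into an exon of 82 bases that also occurs in EZH2-207, where the annotated stop comes earlier, in exon 5.

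The coding forms of EZH1 were also unequal between the libraries. Its 24 listed transcripts summed to 591 estimated counts in vehicle and 467 in (R)-9b (log2 ratio −0.09, −0.27 to 0.09). EZH1-202, the form with the stretch, had 464 and 399, or 78.5% and 85.4% of the estimated counts of the gene, but 63.9% and 57.3% per transcript length. EZH1-201, the form without it, had 86.9 in vehicle (14.7%) and 0 in (R)-9b, where an exact interval of counting error alone allows up to 0.787%. That interval leaves out the uncertain split of reads between overlapping transcripts, so the 0 does not show that EZH1-201 was absent. In EZH2 the form without its 27-base stretch, EZH2-208, had a larger share in (R)-9b (32.2%) than in vehicle (25.6%). EZH1 transcripts annotated as retained introns had 15.8 and 56.7 estimated counts, a share of 2.68% (1.56% to 4.36%) in vehicle and 12.1% (9.38% to 15.5%) in (R)-9b. Over the whole table that share was 4.13% and 4.96%. A rise of at least the 9.47 percentage points of EZH1 was seen in 282 (6.50%) of 4338 genes with such transcripts and at least 400 estimated counts in each library, and 67.2% of those genes had any rise.

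**Figure D3:**
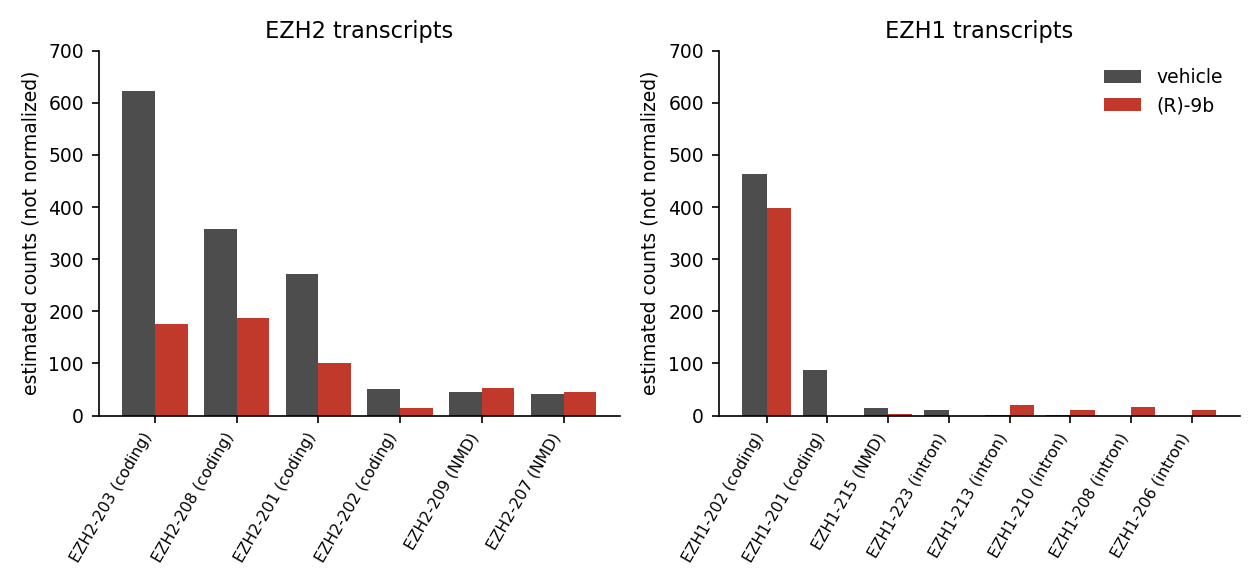
Estimated counts, not normalized, of the EZH2 transcripts (left) and EZH1 transcripts (right) with over 9 estimated counts in either library, in vehicle (grey bars) and (R)-9b (red bars), marked as coding, NMD or retained intron. The 4 coding EZH2 transcripts are lower in (R)-9b, from 623 to 176 for EZH2-203, while the NMD transcripts stay between 40.7 and 53.4.

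The partners of the members were examined as lists. The list for the other variant, PRC2.1, held its accessory subunits and EZHIP, which is not an accessory subunit. It had 5 of 6 genes tested, all but EZHIP. Of these, 1 was lower and none higher past 1.5-fold, with a median log2 ratio of −0.33 (0.12 with estimated transcript counts). PHF1, a Tudor domain subunit that binds methylated H3K36, was at −0.61 and LCOR at −0.56, while EPOP was at 0.20 and MTF2, which binds CpG islands, at 0.50. EZHIP, an inhibitor of EZH2, had 4 and 2 counts. In the KMT2C/KMT2D complex that contains KDM6A, 1 of 9 was lower past 1.5-fold and none higher, with a median of −0.33. KMT2C was at −0.67, NCOA6 at −0.54, PAXIP1 at −0.12 and WDR5 at 0.28.

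The acetyltransferases of the same lysine, whose product excludes methylation, were both lower. CREBBP had 13323 and 6072 counts (log2 ratio −0.90) and EP300 had 9740 and 5911 (−0.48), so 1 of 2 passed 1.5-fold. Of 14 other JmjC demethylases, which share the catalytic fold of KDM6A and KDM6B but act mostly on other lysines, 3 were lower and none higher past 1.5-fold, with a median of −0.30. KDM3A, an H3K9 demethylase known as an androgen receptor coactivator, had 8077 and 1821 counts and a log2 ratio of −1.91, beyond that of EZH2, and JMJD1C was at −1.06. PHF8 was at 0.12 and KDM2B at 0.34.

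PRC1, which ubiquitinates histone H2A and reads H3K27me3 through its CBX subunits, had 1 of 19 genes lower and 2 higher past 1.5-fold, with a median of −0.07. RING1, a catalytic subunit, was at −0.43, whereas CBX6 was at 0.65 and CBX2 had 2134 and 3291 counts (0.86). Of the deubiquitinase that opposes PRC1, 3 of 4 genes were tested, and ASXL2 (−0.83), ASXL1 (0.01) and BAP1 (0.09) gave a median of 0.01 (−0.24 with estimated transcript counts). Other complexes with RBBP4 or RBBP7, such as the histone deacetylase and DREAM complexes, had 2 of 14 genes lower and 1 higher, with a median of 0.02. LIN52 was at −0.60, LIN54 at −0.59, HDAC1 at 0.34 and LIN37, which had 80 and 105 counts, at 0.63.

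E2F targets and cell cycle genes differed in both directions. Of 21 genes, 2 were lower and 2 higher past 1.5-fold, with a median log2 ratio of −0.06. By the counting interval alone, 10 were lower and 9 higher. The nucleotide synthesis genes RRM2 (−0.69) and TYMS (−0.62) were the lowest of these. E2F3 (0.89) and cyclin E1, CCNE1 (641 and 1362 counts, 1.33), were the highest. All 21 lay above EZH2, but only 3.25% of all genes with at least 1000 counts were as low as EZH2. A part of E2F or of cell division in the EZH2 difference was not tested.

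Genes known from other systems to be repressed by PRC2 were set beside the EZH2 value. Of 18, 15 were tested, with 1 lower and 3 higher past 1.5-fold and a median log2 ratio of −0.07. CXCL10, the T-cell chemokine, had 16 counts in vehicle and 198 in (R)-9b (log2 ratio 3.87, 3.13 to 4.70). The paper had reported the CXCL10 increase from the same RNA sequencing, and the list was chosen with that result known. The CXCL10 value is therefore no separate support, and the count of higher genes depends on that choice. CXCL11 had 0 and 14, for which the interval gives a log2 ratio of at least 1.97, a bound that would be lower with counts divided by 2. CXCL9 had no counts in either library. MSMB, a prostate secretory protein, had 44 and 66 counts (0.82). The gene lower past 1.5-fold was CCN3, with 42 and 19 counts (−0.91, −1.77 to −0.09). CDH1, the epithelial cadherin, was at −0.52 and KLF2 at −0.38, both within 1.5-fold. These lists are described against the background of 18.0% lower and 20.2% higher past 1.5-fold and were not tested. Many listed genes had at least 1000 counts in the 2 libraries together, and among all such genes 10.0% were lower and 8.72% higher. H3K27me3 itself was not measured here.

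**Figure D4:**
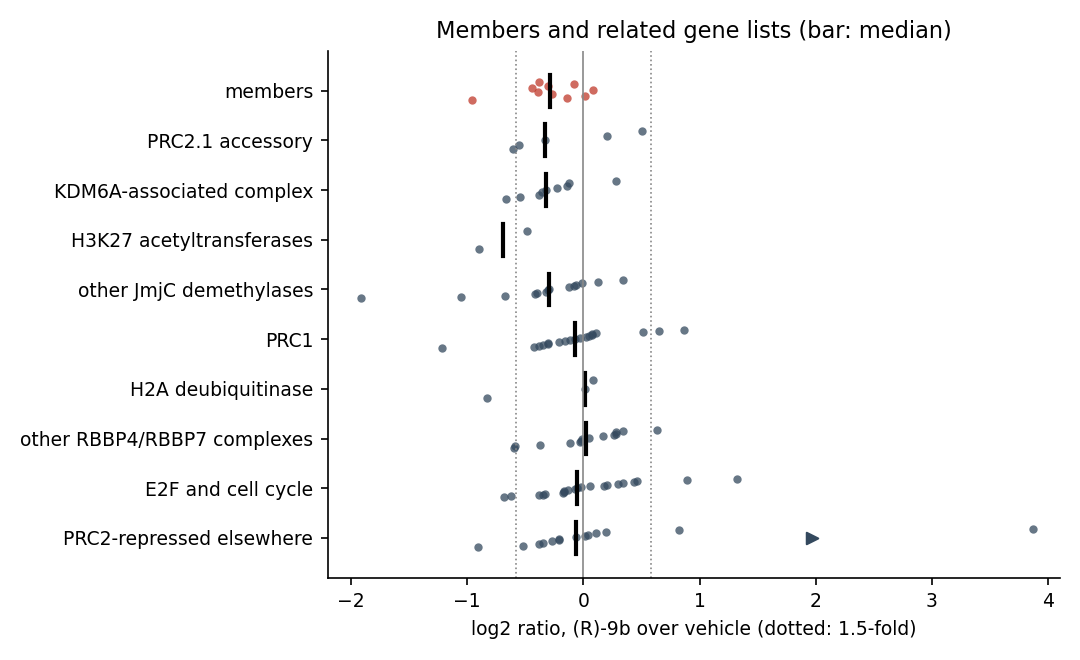
Log2 ratio of (R)-9b over vehicle for each tested gene of the members (red) and of 9 related lists (blue), with a black bar at each median and dotted lines at 1.5-fold. The triangle is the lower bound of CXCL11, which had 0 counts in vehicle, from counts not divided by 2. EZH2 is the lowest red point at −0.96.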

How the data were processed

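RNA of C4-2B cells was sequenced by the authors as read pairs, which they aligned to GRCh38. The methods name STAR 2.7.9a with Ensembl release 101, and the submitters' processing notes name STAR 2.5.1a, featureCounts 1.4.6-p5 and Salmon 0.8.2. The deposited gene counts are whole numbers of uniquely aligned reads without normalization. The authors also deposited CPM and moderated log2 CPM of the same genes, and estimated counts per transcript, all used as alternatives or for isoforms. Of 60871 lines, 200 repeated genes were dropped. TMM factors from edgeR 4.0.16 (R 4.3.3) were 1.02 for vehicle and 0.979 for (R)-9b. Exact Clopper-Pearson 95% intervals (scipy 1.17.1, Python 3.11.15) were computed for genes with at least 10 counts, and cover counting error only. No p-value was computed, with 1 library per condition. Locations, lengths and transcript sequences came from GENCODE 29, another release than the authors'. Ratios were tested on simulated counts that held counting error only, without the 2 ends of a fragment or a spread between cultures. The members, lists and alternatives were chosen with earlier results of these data known. Named were all members, transcripts of EZH2 and EZH1 with at least 5% of their gene, and, per list, genes past 2-fold and the 2 highest and 2 lowest with at least 100 counts. Of the genes this rule takes, a few are left unnamed here, and some genes with fewer counts are named outside it.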

Additional observations from a re-analysis of the deposited data

How the results depend on the processing

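The log2 ratio of EZH2 ran from −1.02 to −0.93 over 9 alternatives (scaling by totals, DESeq2 1.42.0 size factors or the upper quartile, TMM without mitochondrially encoded genes, the deposited CPM, moderated log2 CPM or estimated transcript counts, counts divided by 2, and 5 counts added). Not all are separate checks of a ratio, since dividing counts by 2 changes only the interval and the deposited CPM gave the same ratios as scaling by totals. Of the other 9 members, 8 kept their sign under all 9 alternatives, and EED was below 0 under 4 and above 0 under 5 (−0.04 to 0.08). No member past 1.5-fold reversed under any of the 9. With estimated transcript counts 2 members instead of 1 were lower past 1.5-fold, the second being SUZ12 at −0.62, for which that table lists 3 of 4 transcripts. With the whole interval required beyond 2-fold, 0 members were lower and 0 higher, against 8 and 1 by the interval alone, and with scaling by totals 0 were higher by the interval. Genes lower past 1.5-fold numbered 4218, or 2302 with estimated transcript counts, 8151 at a minimum of 1 count, 2520 at 50 and 1029 at 1000, the last chosen after seeing the data. Genes higher numbered 4747, or 2547, 9355, 2543 and 893 in the same order. Medians moved for the PRC2.1 subunits (0.12) and the H2A deubiquitinase (−0.24) with estimated transcript counts. With scaling by totals, the deposited CPM or moderated log2 CPM, they moved to −0.75 for the acetyltransferases and −0.12 for the cell cycle list. Per transcript length, the retained-intron share of EZH1 was 16.2% in vehicle and 34.8% in (R)-9b. With the longest coding transcript as the length, EZH2:EZH1 was 4.31 and 2.44. The causes were not tested. Low counts limit the isoform shares, and 1 library per condition limits every comparison.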

Other observations

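The transcript table also held values for the other members, named here after they were seen. JARID2-201 had 803 estimated counts in vehicle and 237 in (R)-9b, while JARID2-202, which has a shorter annotated mRNA, had 0 and 235, so that the gene was split 50.1% to 49.9% in (R)-9b. AEBP2-202 had 82.2 estimated counts in vehicle and 0 in (R)-9b, AEBP2-204 had 0 and 31.3, and AEBP2-207 had 19.2 and 67.7. The split of reads between overlapping transcripts is an estimate, and the files hold no error for it.

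Transcripts annotated as retained introns took 30.1% of KDM6A in vehicle (28.9% to 31.5%) and 38.7% in (R)-9b (37.2% to 40.2%). In RBBP7 they took 0.343% and 2.05%, and in SUZ12 6.15% (4.18% to 8.45%) and 12.2% (8.58% to 16.4%), where the intervals overlap. RBBP4, with 16.3% and 16.8%, and EED, with 4.43% and 4.22%, had nearly equal shares in the 2 libraries. A rise was common, since the share over all transcripts was 4.13% in vehicle and 4.96% in (R)-9b. Of 4338 genes with such transcripts and at least 400 estimated counts in each library, 67.2% had a rise. For KDM6A, 12 of 32 transcripts had a length in GENCODE 29, so no share per length was computed. NMD transcripts held 44.7% of RBBP4 in vehicle and 45.6% in (R)-9b, and 11% and 9.25% of KDM6A.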
